A study of Homo sapiens with 12 samples.

Results

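The nuclear genes for the subunits of the 5 mitochondrial respiratory chain complexes were followed across 4 groups of AsPC-1 cells, an established human pancreatic cancer line. The set was chosen by gene name (symbols that start with NDUFA, NDUFB, NDUFC, NDUFS, NDUFV, UQCR, COX4I, COX5, COX6, COX7, COX8, ATP5F1, ATP5M or ATP5P, with SDHA, SDHB, SDHC, SDHD and CYC1), without assembly factors, pseudogenes, antisense RNAs and readthrough genes. It held 88 of the 57820 genes in the files: 37 of complex I, 4 of complex II, 10 of complex III, 19 of complex IV (with NDUFA4 and NDUFA4L2, which are counted there) and 18 of complex V. The naming rule uses no measured value. Plated cells received either a scrambled control siRNA (siControl) or siRNA that targets ARNT (siARNT), and the cells were divided a day later. One share was kept at 21% oxygen (normoxia) and the other spent 24 h at 1% oxygen (hypoxia), and RNA was taken 48 h after transfection. This gave siControl and siARNT cells in normoxia and the same pair in hypoxia, with 3 libraries of poly(A) RNA in each of the 4 groups (replicates A, B and C). All groups share the line and the transfection, there was no untransfected group, and siARNT lowers ARNT without deleting it. The replicates were wells of 1 line, so the p-values measure the spread between wells.

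Complexes I to IV pass electrons from NADH and succinate to oxygen, and complexes I, III and IV pump protons as they do so. Complex V, the ATP synthase, lets the protons flow back through a rotating ring of c subunits and makes ATP. ARNT is the common partner of the HIF alpha subunits, the factors that carry most of the transcriptional response to low oxygen. HIF-1 is known for lowering the use of oxygen by mitochondria, through PDK1 and, in some cells, through a change of complex IV subunits (COX4I2 for COX4I1) and through NDUFA4L2.

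With siControl, ARNT was at 62.4 ± 1.53 CPM (counts scaled to the size of the library; mean ± SD, n = 3) in normoxia and 69.1 ± 3.81 in hypoxia, and with siARNT it was at 13.4 ± 0.56 and 15.3 ± 1.04. PDK1, the kinase that closes the entry of pyruvate into mitochondria, was at 38.6 ± 2.56 and 100.3 ± 5.47 CPM with siControl and at 38.5 ± 2.11 and 39.5 ± 1.46 CPM with siARNT. The gene counts of a library summed to between 38525512 and 84337166. The level of GC-rich genes varied between libraries: the slope of log2 level on GC content ran from -0.21 to 0.44 per 10 percentage points, and replicate B of normoxia siARNT, at 0.44, stood furthest from its group. Of 10 markers of pancreatic cancer epithelium 7 had a mean over 10 CPM, and of 23 markers of fibroblasts, leukocytes, endothelium, acinar cells and muscle only LUM (449 CPM) and LYZ (186 CPM) did, with CD3E and AMY2A at 0 in all 12 libraries. The summed CPM of the fibroblast markers, nearly all of it LUM, ran from 571 to 597 in hypoxia siControl and from 340.3 to 472 in the other groups. Its part in the results was not tested.

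Of the 88 genes, 81 had enough counts to be tested. Per kilobase of transcript, the highest tested subunits were NDUFB3 in complex I (159 CPM per kb), SDHC in complex II (212), UQCRB in complex III (406), COX7B in complex IV (313) and ATP5F1B, the catalytic beta subunit of complex V (389). The lowest were NDUFA11 (0.738 CPM per kb, transcript GC content 62.9%), SDHA (64.6, 54.8%), UQCRHL (5.07, 46.9%), COX6B2 (1.14, 58.5%) and ATP5F1D, the delta subunit (2.85, 69.1%). Subunits of 1 complex are held in fixed proportion in the assembled enzyme, yet their read levels here differed widely, and over the 81 tested genes the log2 level per kb fell with GC content (Pearson r = -0.58 across genes, which share libraries and are not independent). The part of library preparation in this was not tested. The 7 untested genes were COX4I2, COX6A2, COX7A1, COX7B2, COX8C, NDUFA4L2 and ATP5MGL, with at most 10 counts in any library.

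In siControl cells, 24 h at 1% oxygen lowered some subunits of every complex, each by less than a factor of 2, and left others without a call. By edgeR's quasi-likelihood test, 43 of 81 subunits were called lower at an adjusted p (Benjamini-Hochberg, over all 16999 genes tested) under 0.05, against 14.9% of all genes called lower, and 1 was called higher, against 10.4% (44 of 81 in all, against 25.3%). The median log2 fold change of the 81 was -0.22 (0.856-fold), and that of all genes was 0.02. The called falls ran from 0.603-fold to 0.893-fold. Of the 44 calls, 26 were kept in every alternative fit. The calls lost when some single libraries were left out included those of NDUFA1, NDUFB9, NDUFS1, NDUFS3, NDUFV2, SDHC, UQCRC2, UQCRH, COX5A, COX6A1, COX6B2, COX7C, ATP5F1E and ATP5MK. Those of NDUFA9, ATP5MG and ATP5PO were lost under another filter or a GC correction. The change in RNA per cell and a change in the make-up of the culture cannot be told apart in bulk RNA. Summed over all 88 genes, the CPM were 8021 ± 44.0 in normoxia siControl and 6741 ± 73.3 in hypoxia siControl (SD, n = 3), or 84.0% of the former.

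**Figure D1:**
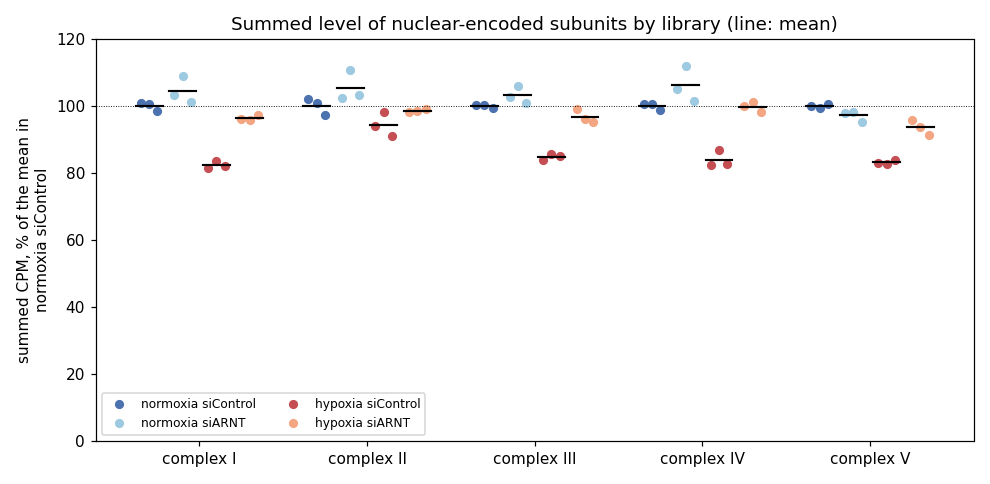
Summed CPM of the nuclear-encoded subunits of each complex in every library, as a percentage of the mean of normoxia siControl (points, libraries; lines, group means; the vertical axis starts at 0). The hypoxia siControl group has the lowest mean in every complex, at 82.4% (complex I), 94.4% (II), 84.9% (III), 83.9% (IV) and 83.2% (V).

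In the summed values, complex II moved least. Its 4 genes came to 492 ± 12.2 CPM in normoxia siControl and 464 ± 17.9 in hypoxia siControl, and single libraries of these groups overlapped (478 to 502 against 448 to 483). The sums of complexes I, III, IV and V did not overlap between these groups: complex V, for example, held 3038 to 3071 CPM in normoxia siControl and 2524 to 2559 in hypoxia siControl. With siARNT the means for complexes I to V, as a share of normoxia siControl, were 104.5%, 105.4%, 103.2%, 106.1% and 97.2% in normoxia and 96.4%, 98.6%, 96.8%, 99.8% and 93.6% in hypoxia. The siARNT sums were thus lower in hypoxia too: the libraries of the oxygen levels did not overlap for complex I (1946 to 2097 CPM in normoxia, 1844 to 1870 in hypoxia), II, III and IV (1503 to 1655 and 1454 to 1495) or for all 88 genes (7945 to 8433 and 7621 to 7802), and overlapped for complex V.

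The promoter letters of 4 subunits are given here as examples from hypoxia in siControl: ATP5MC1, NDUFB3 and COX7B had the largest called fall within complexes V, I and IV, and COX6B2 had the only called rise. The windows (RefSeq, GRCh38.p14) run 5′ to 3′ from 250 bases before to 50 bases after the start, at chr17:48892537-48892836 (plus strand), chr2:201071751-201072050 (plus), chrX:77899218-77899517 (plus) and chr19:55354670-55354969 (minus). Capitals mark the HIF core letters ACGTG or GCGTG, the NRF1 letters GCGCATGC and the ETS letters CCGGAAG on either strand.
ATP5MC1: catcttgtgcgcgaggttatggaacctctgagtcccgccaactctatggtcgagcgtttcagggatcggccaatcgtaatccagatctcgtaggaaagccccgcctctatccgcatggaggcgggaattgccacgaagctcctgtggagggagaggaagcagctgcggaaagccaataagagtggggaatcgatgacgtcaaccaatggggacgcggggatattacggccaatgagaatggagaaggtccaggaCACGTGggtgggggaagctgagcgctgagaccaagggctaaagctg
NDUFB3: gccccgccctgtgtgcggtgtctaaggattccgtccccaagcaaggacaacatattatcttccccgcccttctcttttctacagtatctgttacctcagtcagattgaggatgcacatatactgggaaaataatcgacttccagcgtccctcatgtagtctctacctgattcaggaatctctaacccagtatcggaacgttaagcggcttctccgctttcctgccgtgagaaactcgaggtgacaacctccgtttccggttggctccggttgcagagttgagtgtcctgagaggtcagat
COX7B: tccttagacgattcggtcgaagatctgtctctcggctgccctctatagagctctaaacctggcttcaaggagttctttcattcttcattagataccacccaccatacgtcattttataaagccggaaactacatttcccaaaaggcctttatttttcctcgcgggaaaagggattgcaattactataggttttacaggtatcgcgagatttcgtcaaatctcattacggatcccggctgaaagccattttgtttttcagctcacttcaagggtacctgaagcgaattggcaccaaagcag
COX6B2: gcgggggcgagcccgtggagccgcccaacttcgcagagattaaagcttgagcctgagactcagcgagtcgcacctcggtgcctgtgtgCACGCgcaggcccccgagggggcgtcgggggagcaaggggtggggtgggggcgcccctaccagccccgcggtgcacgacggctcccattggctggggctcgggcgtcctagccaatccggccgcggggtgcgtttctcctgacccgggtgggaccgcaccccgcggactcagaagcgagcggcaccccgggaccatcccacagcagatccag
The ATP5MC1 window holds 1 palindrome, CACGTG, which reads ACGTG on both strands, and the COX6B2 window 1 GCGTG on the other strand. The windows of NDUFB3 and COX7B hold none of the 3 motifs. Windows were found for 69 of the 88 genes (82 windows, since some genes have several starts). HIF core letters stood in 61.0% of these windows, in 64.1% of the 39 windows of called falls and in 48.4% of the 35116 windows of all genes. NRF1 letters stood in 18.3% of the subunit windows, 10.3% of the windows of called falls and 3.05% of all. For ETS letters these shares were 26.8%, 33.3% and 10.3%, and for the YY1 letters AAGATGGC 15.9%, 20.5% and 2.89%. The NFY letters CCAAT stood in 34.1%, 30.8% and 34.6%. A match describes letters and not a bound site.

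Complex V had the highest share of called falls, 13 of 17 tested genes, with a median log2 fold change of -0.28. ATP5MC1, 1 of 3 genes for the same c subunit of the rotor ring, fell most of all subunits. Its level was 35.8, 42.0 and 36.6 CPM in replicates A, B and C of normoxia siControl and 22.5, 24.0 and 22.6 CPM in hypoxia siControl. The hypoxia libraries lay close together and well below the others (log2 fold change -0.73, SE 0.117, adjusted p = 0.000847). ATP5MC3, the second c subunit gene, went from 210.0, 207 and 214 CPM to 167, 168 and 164 CPM (-0.34, SE 0.052, adjusted p = 0.000651). ATP5MC2, the third, had overlapping values of 86.3, 103 and 90.2 CPM and 96.8, 119.9 and 92.4 CPM (0.15, SE 0.197, adjusted p = 0.637). The catalytic head fell too: ATP5F1A, the alpha subunit, by 0.33 and ATP5F1B by 0.28 on the log2 scale, with ATP5F1E, the epsilon subunit, at -0.20. All 4 peripheral stalk genes were called lower (ATP5PB, ATP5PD, ATP5PF and ATP5PO, -0.29 to -0.22), as were ATP5MF, ATP5MG, ATP5MJ and ATP5MK of the membrane part. The 4 tested genes that were not called were ATP5F1C (the gamma subunit, -0.15), ATP5F1D (0.29, SE 0.568), ATP5MC2 and ATP5ME (-0.04).

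In complex I, 17 of 37 genes were called lower and none higher (median log2 fold change -0.24). Among the nuclear core subunits, which carry the flavin and the iron-sulfur clusters or the quinone site, NDUFV2 (-0.34), NDUFS1 (-0.31) and NDUFS3 (-0.22) were called, and NDUFV1 (-0.08, SE 0.275), NDUFS7 (-0.06, SE 0.399) and NDUFS8 (-0.24, SE 0.369) were not. A pseudogene of NDUFV2 held 21.1% of the counts of the gene and its pseudogene together, so the counts of NDUFV2 are uncertain. The largest fall was in NDUFB3, an accessory subunit of the membrane arm, at 99.8, 98.1 and 99.6 CPM in normoxia siControl and 69.9, 64.9 and 75.3 CPM in hypoxia siControl (-0.50, SE 0.075, adjusted p = 0.000513). The groups were far apart relative to their spread. NDUFA6, an accessory subunit of the peripheral arm, was at 50.1, 47.7 and 51.8 CPM and then at 35.3, 33.8 and 37.9 CPM (-0.48, SE 0.064, adjusted p = 0.000239). NDUFAB1, the mitochondrial acyl carrier protein, which also serves lipoate and iron-sulfur cluster synthesis, went from 94.9, 89.4 and 89.3 CPM to 65.1, 63.1 and 68.7 CPM (-0.47, SE 0.069, adjusted p = 0.000444). Neither pair of groups overlapped. Further called genes of complex I included NDUFB6, NDUFS5, NDUFB9, NDUFB8, NDUFB1, NDUFA12, NDUFB2, NDUFA10, NDUFA9 and NDUFA1 (-0.44 to -0.24). The 20 uncalled genes ran from -0.41 to 0.94, and the value of 0.94 was that of NDUFB7, at 0.497 to 2.32 CPM in these 6 libraries.

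Complex III had 4 called falls among 10 genes. UQCRQ, a small subunit beside the cytochrome b core, was at 74.6, 77.3 and 72.9 CPM in normoxia siControl and 53.3, 57.4 and 53.6 CPM in hypoxia siControl (-0.45, SE 0.053, adjusted p = 0.000106). UQCRFS1, the Rieske iron-sulfur protein that takes electrons from ubiquinol, went from 69.6, 65.4 and 68.3 CPM to 52.0, 50.9 and 51.1 CPM (-0.40, SE 0.057, adjusted p = 0.000392). UQCRC2, a core subunit, and UQCRH, the hinge protein, were called at -0.26 and -0.16. CYC1, the cytochrome c1 gene, was at -0.23 with an SE of 0.305 and was not called. In complex II, SDHB, the iron-sulfur subunit, fell from 88.7, 87.1 and 89.0 CPM to 72.9, 72.3 and 76.1 CPM (-0.26, SE 0.050, adjusted p = 0.00247), and SDHC, a membrane anchor, fell by 0.18 on the log2 scale (adjusted p = 0.0126). SDHA, the flavoprotein, was at 114, 128 and 115 CPM and at 129.9, 154 and 124 CPM (0.19, SE 0.137, adjusted p = 0.34). Pseudogenes of SDHA held 21.2% of the counts of SDHA and its pseudogenes together, so its counts are uncertain.

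In complex IV, 7 of 13 tested genes were called lower and 1 higher. COX7B, a small structural subunit, went from 219.9, 213 and 220.3 CPM to 158, 163 and 162 CPM (-0.43, SE 0.067, adjusted p = 0.000665), and NDUFA4 from 294, 280.3 and 291 CPM to 223, 226 and 227 CPM (-0.36, SE 0.063, adjusted p = 0.0016). The hypoxia libraries of both genes were tight and below all normoxia libraries. COX5A, COX7A2, COX6C, COX6A1 and COX7C were called lower too, at -0.38 to -0.17. COX6B2, a paralog of COX6B1 that is best known from testis, was the single subunit called higher. Its level was low: 1.77, 1.49 and 1.49 CPM in normoxia siControl and 2.75, 3.14 and 2.36 CPM in hypoxia siControl, from 68 to 182 counts per library. The groups did not overlap (0.79, SE 0.215, adjusted p = 0.018). This call was lost without replicate B or C of normoxia siControl or replicate A or B of hypoxia siControl, with adjusted p from 0.0504 to 0.0666.

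**Figure D2:**
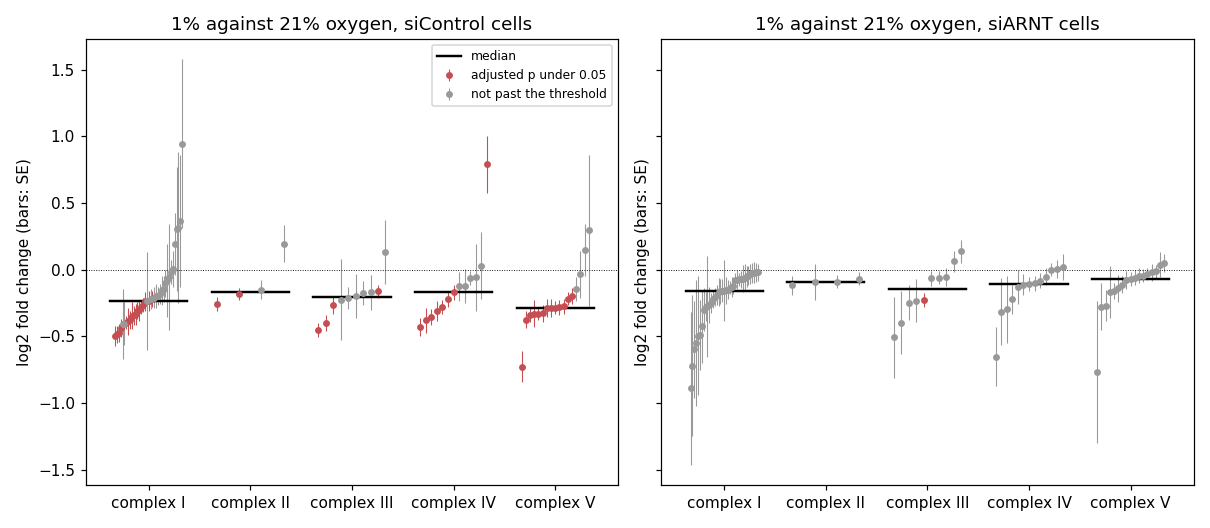
Log2 fold change of 1% against 21% oxygen for the 81 tested subunits (points, genes sorted within each complex; bars, SE; black lines, medians; red, adjusted p under 0.05), in siControl cells (left) and siARNT cells (right). The left panel holds 43 red points below 0 and 1 above, and the right panel holds 1.

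The precision and the calls varied with GC content. Of the 61 tested subunits with a transcript GC content under 55%, 43 were called lower in hypoxia siControl (median log2 fold change -0.28, median SE 0.07). Of the 20 with 55% or more, none was called lower and COX6B2 was called higher (median -0.05, median SE 0.26). All genes of the same GC classes had medians of -0.03 and 0.17 in this comparison. With the GC trend of each library removed, the medians of the subunits were -0.22 and -0.13, and 51 were called lower and 2 higher. The shares of all genes called in these GC classes or in this refit are not given here. The counts of calls by class are thus not set against a background.

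**Figure D3:**
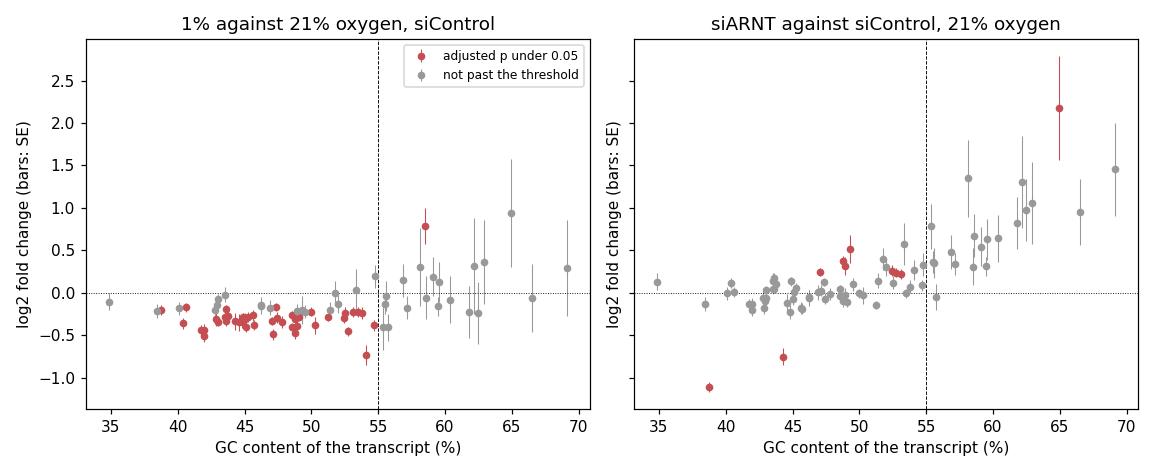
Log2 fold change of the 81 tested subunits (bars, SE) against the GC content of the transcript, for hypoxia in siControl (left) and for siARNT in normoxia (right); the dashed line marks 55%. Called genes (red) on the left lie below 55% but for COX6B2, and on the right the fold changes climb with GC content.

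Hypoxia was also compared within siARNT cells, to see what remained of the response with little ARNT. The median log2 fold change of the 81 subunits was -0.12 (all genes -0.04), and 75 of 81 estimates were below 0. Only UQCRQ was called (88.7, 91.2 and 84.9 CPM in normoxia siARNT and 75.3, 74.6 and 75.8 CPM in hypoxia siARNT, -0.23, SE 0.053, adjusted p = 0.0366), while 4.09% of all genes were called, 1.89% lower and 2.21% higher. The UQCRQ call was lost without any 1 of these 6 libraries, without any normoxia siControl library and without hypoxia siControl replicate A, with adjusted p from 0.0611 to 0.246 over the 14 of 23 alternatives that lost it. At an unadjusted p under 0.05 in edgeR's test there were 10 of 81 subunits and 3605 of all 16999 genes. DESeq2 called 1 subunit. After GC correction 15 subunits were called, all lower, and the share of all genes called in that fit is not given here. The 43 genes called lower in siControl had a median log2 fold change of -0.31 there and of -0.07 in siARNT, where they ran from -0.27 to 0.05. They were picked for the first value, and the second comes from other libraries.

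The difference between the hypoxia responses of siControl and siARNT cells was tested as an interaction. It was called for 9 of 81 subunits (4.69% of all genes), 8 with a higher value in siARNT (2.49% of all genes) and 1 with a lower value (2.19%). The 8 were NDUFB3 (interaction 0.48, SE 0.106, adjusted p = 0.028), NDUFAB1 (0.45), COX7B (0.44), NDUFA6 (0.41), ATP5MJ (0.36), UQCRFS1 (0.34), ATP5F1A (0.30) and NDUFS5 (0.26). In siARNT cells NDUFB3 was at 97.3, 84.0 and 90.3 CPM in normoxia and 94.3, 90.4 and 82.1 CPM in hypoxia, and COX7B at 201, 174 and 192 CPM and at 201, 195 and 174 CPM. Both pairs overlapped. NDUFAB1 likewise overlapped, at 89.8, 80.5 and 85.6 CPM and at 89.6, 85.8 and 76.8 CPM. COX6B2 went the other way, with 1.6, 2.64 and 1.69 CPM in normoxia siARNT and 1.0, 1.22 and 1.56 CPM in hypoxia siARNT (interaction -1.44, SE 0.310, adjusted p = 0.0254). None of the 9 calls was kept in every alternative. The count was 0 without normoxia siControl replicate A or C, hypoxia siControl replicate A or hypoxia siARNT replicate B. It was 1 without normoxia siControl B, normoxia siARNT C, hypoxia siControl B or hypoxia siARNT A, 5 without normoxia siARNT A, 6 without hypoxia siControl C, 9 without normoxia siARNT B and 16 without hypoxia siARNT C. With same-letter libraries of an siRNA taken as 1 transfected well and used as a block, 2 calls were left (NDUFB3 and COX6B2). The labels do not say that a letter marks a shared well. With no filter on low counts 4 calls were left. GC correction gave 22 calls, 21 of them higher in siARNT, and DESeq2 gave 10. The shares of all genes called in these refits are not given here, so the counts have no background.

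**Figure D4:**
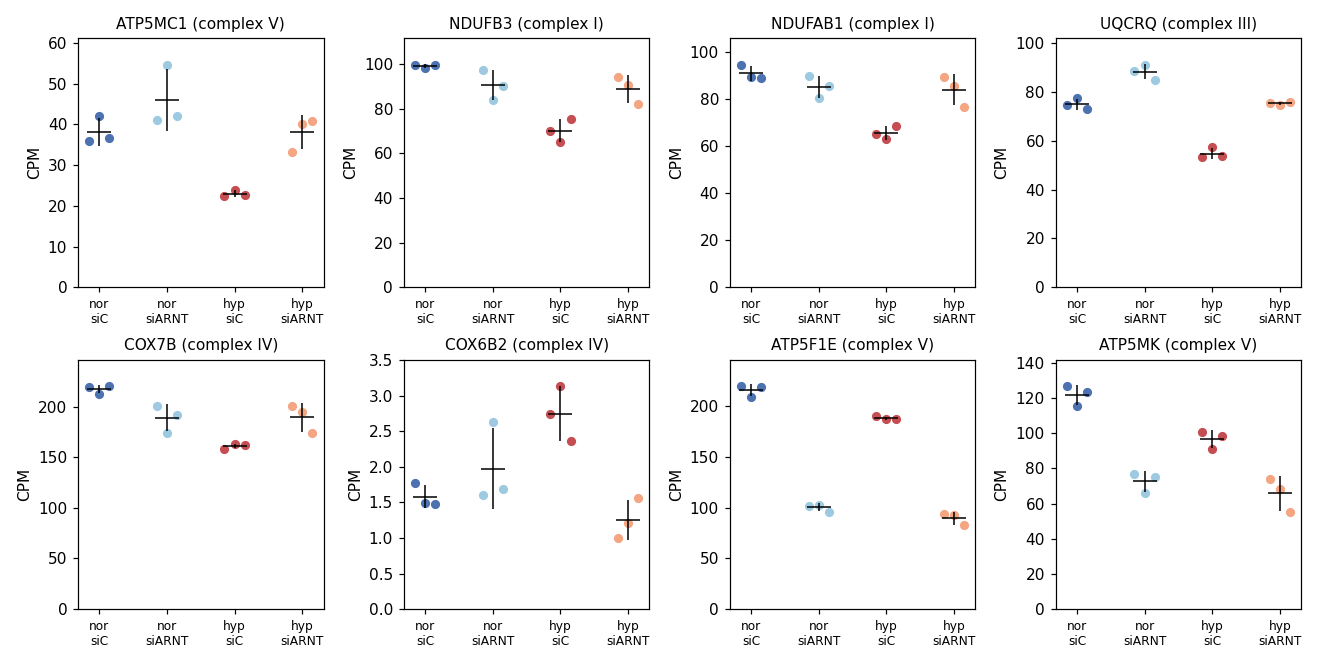
CPM of 8 subunits in every library (points), with the group mean and SD (n = 3), by group (nor, 21% oxygen; hyp, 1% oxygen; siC, siControl); each vertical axis starts at 0. ATP5MC1, NDUFB3, NDUFAB1, UQCRQ and COX7B have their lowest mean in hypoxia siControl, COX6B2 has its highest mean there, and ATP5F1E and ATP5MK are lower in both siARNT groups.

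Under hypoxia, 31 subunits were higher in siARNT than in siControl cells. This comparison shares the hypoxia siControl libraries with the one above, so its values are not a second measurement of the same change. Of 81 subunits, 34 were called (29.1% of all genes), those 31 (14.4% of all genes called higher) and 3 that were lower (14.7%), with a median log2 fold change of 0.23 (all genes 0.02). By complex, 11 of 37 genes in complex I, 2 of 4 in II, 5 of 10 in III, 4 of 13 in IV and 9 of 17 in V were called higher. The largest called rise was that of ATP5MC1, with 33.2, 40.1 and 40.8 CPM in hypoxia siARNT (0.72, SE 0.118, adjusted p = 0.00069). NDUFB2, an accessory subunit of the membrane arm, led the called genes of complex I at 43.6, 43.8 and 40.7 CPM in hypoxia siControl and 66.8, 65.6 and 69.9 CPM in hypoxia siARNT (0.66, SE 0.063, adjusted p = 1.29e-05). ATP5F1A was at 389, 394 and 393 CPM and then at 573, 569 and 571 CPM (0.54, SE 0.044, adjusted p = 3.97e-06). Among called genes, NDUFA4 led complex IV (0.42), UQCR10, a small subunit, led complex III (0.48, adjusted p = 0.046) and SDHB led complex II (0.16, adjusted p = 0.0314). The calls of UQCR10 and SDHB were lost under 9 and 11 of 22 alternatives. For UQCR10 these included leaving out any normoxia siControl library, hypoxia siControl A or C or hypoxia siARNT B or C (adjusted p up to 0.158), and for SDHB any normoxia siControl or hypoxia siARNT library or hypoxia siControl A or B (adjusted p up to 0.309).

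In both oxygen conditions, siARNT lowered ATP5F1E and ATP5MK, against the direction of the other called subunits except COX6B2 in hypoxia. ATP5F1E (ENSG00000124172.5, chr20:59025467-59032382, minus strand in GENCODE 29), whose product sits in the central stalk of the ATP synthase, was at 219.6, 209 and 219 CPM in normoxia siControl and 102, 103 and 95.9 CPM in normoxia siARNT. Under hypoxia it was at 190.0, 187 and 187 CPM with siControl and 93.7, 92.6 and 82.4 CPM with siARNT. The siARNT libraries held less than any siControl library by a wide margin (log2 fold change -1.11, SE 0.059, adjusted p = 4.22e-07 in normoxia; -1.07, SE 0.060, adjusted p = 2.25e-07 in hypoxia). ATP5MK (ENSG00000173915.8, chr10:103389041-103396492, minus strand), a small membrane subunit linked to the pairing of ATP synthases, was at 127, 116 and 123 CPM in normoxia siControl and 76.9, 65.8 and 74.8 CPM in normoxia siARNT (-0.75, SE 0.101, adjusted p = 0.000486). In hypoxia it was at 101, 91.0 and 98.6 CPM with siControl and 74.0, 68.2 and 54.9 CPM with siARNT (-0.56, SE 0.101, adjusted p = 0.00143). The interaction was not called for either gene (0.04, adjusted p = 0.821 for ATP5F1E; 0.19, adjusted p = 0.457 for ATP5MK). The falls of both genes with siARNT were kept in every alternative at both oxygen levels. The labels name a single siARNT reagent, so effects of the reagent and of ARNT loss cannot be told apart. Both genes were also called lower in hypoxia siControl (-0.20 and -0.33). Those calls were lost without replicate A or C of normoxia siControl or any hypoxia siControl library, with adjusted p up to 0.12 for ATP5MK and up to 0.375 for ATP5F1E over all alternatives.

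In normoxia, 10 of 81 subunits were called with siARNT (20.2% of all genes), 8 higher (9.42% of all genes) and 2 lower (10.8%), with a median log2 fold change of 0.10 (all genes 0.01). The 8 were NDUFB2 (0.37), NDUFB9 (0.32), NDUFS3 (0.22), NDUFB7 (2.18), UQCR10 (0.52), UQCRQ (0.24), ATP5F1A (0.25) and ATP5MF (0.26), and the 2 were ATP5F1E and ATP5MK. ATP5F1A was at 491, 497 and 490.4 CPM in siControl and 584, 601 and 570.3 CPM in siARNT, with no overlap (adjusted p = 0.00303). NDUFB7, a subunit of the intermembrane side, rested on few reads and mostly on 1 library: it was at 0.497, 1.2 and 0.873 CPM in siControl and 1.74, 7.35 and 2.32 CPM in siARNT. Without replicate B of normoxia siARNT its log2 fold change was 1.26 (adjusted p = 0.101), and the count of called subunits was 5. UQCR10 also lost its call there (0.31, adjusted p = 0.159). The count was 4 without replicate A or C of normoxia siControl, 6 without B, 15 without normoxia siARNT A or C, 18 without hypoxia siARNT A and 17 without hypoxia siARNT C. GC correction gave 33 calls, 30 of them higher, and DESeq2 gave 25. These counts, too, stand without the share of all genes called in the same refit. The calls of ATP5F1A, ATP5F1E, ATP5MK and NDUFB2 were kept in every alternative. The 20 GC-rich subunits had a median log2 fold change of 0.66 in this comparison, all genes of that GC class had 0.44, and after GC correction these subunits had 0.20.

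Paralog switches were looked for within each library, as the ratio of a minor to a major gene in CPM per kb. NDUFA4L2, which HIF-1 raises in many cells, had 1, 3 and 2 counts with siControl in normoxia and 5, 2 and 3 in hypoxia, and with siARNT 2, 5 and 5 in normoxia and 3, 4 and 2 in hypoxia. That was 0.00826 to 0.0612% of NDUFA4 per kb, with no group apart from the others. COX4I2, the isoform that can replace COX4I1 under low oxygen, had no count in any library, which allows up to 0.0402 to 0.121% of COX4I1 per kb (3 counts, counting error only). COX4I1 itself was at 66.4, 80.3 and 66.7 CPM in normoxia siControl and 65.7, 91.2 and 61.0 CPM in hypoxia siControl (0.03, SE 0.250, adjusted p = 0.948). A switch to either gene was thus not detected at this depth, in libraries where PDK1 rose. The transcript GC content is 62.9% for NDUFA4L2 and 59.9% for COX4I2, against 40.4% for NDUFA4 and 53.4% for COX4I1. The level per kb of the tested subunits fell with GC content. The percentages given here take no account of that, and its part in them was not tested. COX7A1, the heart and muscle isoform, had no count either, COX6A2 and COX7B2 had 1 count each in all libraries together, COX8C had 0 to 5 counts and ATP5MGL 1 to 10.

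Where the minor gene had enough counts, 6 ratios were compared in 4 comparisons by an exact permutation test (two-sided), in which 3 libraries against 3 cannot give a p under 0.1. The smallest adjusted p over the 24 tests was 0.2, so no ratio passed. With siControl, COX6B2 was 0.75 ± 0.115% of COX6B1 in normoxia and 1.41 ± 0.127% in hypoxia, and with siARNT 0.714 ± 0.0904% and 0.501 ± 0.0516% (SD, n = 3; exact p = 0.1 for each comparison but siARNT in normoxia, 0.6). ATP5MC1 was 61.7 ± 0.69% of ATP5MC2 in normoxia siControl and 33.9 ± 3.45% in hypoxia siControl (exact p = 0.1), against 53.9 ± 4.43% and 50.7 ± 7.37% with siARNT (exact p = 0.7). ATP5MC1, ATP5MC2 and ATP5MC3 encode the same mature protein with different import sequences. COX7A2L, which joins complexes III and IV in supercomplexes, was 44.7 ± 1.27% of COX7A2 in normoxia siControl and 53.1 ± 1.21% in hypoxia siControl (exact p = 0.1). COX7A2 was called lower (-0.31) and COX7A2L was at -0.06 (adjusted p = 0.395). UQCRHL, an intronless copy of UQCRH, was at 1.73 ± 0.0625% and 1.72 ± 0.148% of UQCRH, but the copies are nearly identical and the split of their reads is uncertain.

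**Figure D5:**
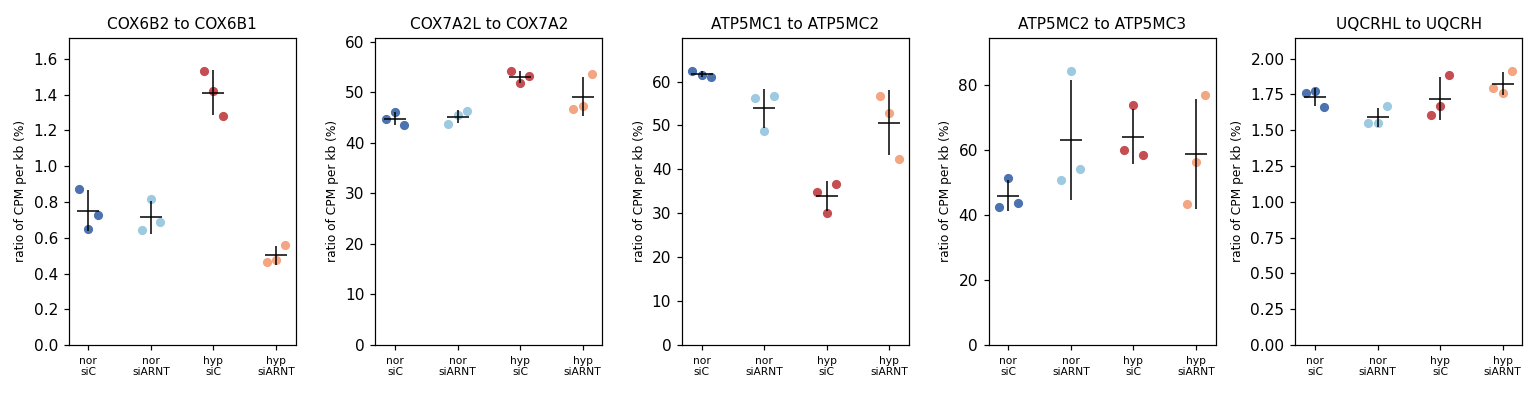
Ratio of a paralog to its partner in CPM per kb (percent), per library (points) with mean and SD (n = 3), for 5 pairs; each axis starts at 0. COX6B2 to COX6B1 has its highest and ATP5MC1 to ATP5MC2 its lowest mean in hypoxia siControl.

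Splicing events of the subunit genes were tested because the series was made to study isoforms. Junction counts gave 299 testable events in 69 of the genes. By edgeR's quasi-likelihood test with a change in the spliced-in fraction (PSI) of at least 0.05, none was called in any comparison, where 1, 1, 0, 2 and 0 of all 40100 events were called (0.00249%, 0.00249%, 0.0%, 0.00499% and 0.0%). At an unadjusted p under 0.05 there were 16 subunit events for hypoxia in siControl (5.35%; all events 4.39%), 15 for hypoxia in siARNT (5.02%; all events 3.53%), 20 for siARNT in normoxia (6.69%; 5.22%), 17 for siARNT in hypoxia (5.69%; 5.40%) and 23 for the interaction (7.69%; 3.68%). Both of the following were named after their values were seen. The alternative exon of 1095 nt in NDUFV3, which gives the long form of this complex I subunit, had a mean PSI with siControl of 0.301 ± 0.048 in normoxia and 0.28 ± 0.033 in hypoxia, and with siARNT of 0.316 ± 0.022 and 0.226 ± 0.055 (SD, n = 3, 110 to 330 junction reads per library). A 65-nt exon of NDUFS1 had a mean PSI of 0.798 ± 0.039 and 0.865 ± 0.025 with siControl and 0.889 ± 0.015 and 0.818 ± 0.027 with siARNT, in the same order of oxygen levels.

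The genes around the complexes were counted from lists. Of 16 complex I assembly factors, 10 were called lower in hypoxia siControl (14.9% of all genes) and none higher, led by NDUFAF4 (-0.74) and NDUFAF5 (-0.64), which act on the early peripheral arm. In siARNT none was called in either direction, where 4.09% of all genes were called. The interaction was called for NDUFAF4 (0.59, adjusted p = 0.0366) and COA1 (0.26), both higher in siARNT (2.49% of all genes). Of 40 assembly factors for complexes II to V, 17 were called lower and none higher in hypoxia siControl (14.9% and 10.4% of all genes). COA7, a heme-binding factor of complex IV assembly, fell with either siRNA (-0.91 in siControl, -0.75 in siARNT, interaction 0.16, adjusted p = 0.368), and UQCC2 (-0.77 in siControl), a factor for cytochrome b, rose with siARNT in hypoxia (0.75) and in normoxia (0.45). SCO1, a copper chaperone of complex IV, rose with siARNT in hypoxia (0.56) and had a called interaction (0.44), while COX20, which helps to mature the COX2 subunit, fell with siARNT in both oxygen conditions (-0.42 and -0.45). In siARNT cells 2 of these 40 factors were called lower in hypoxia, COA7 and UQCC5 (-0.50), against 1.89% of all genes.

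Of the 13 subunits encoded by mitochondrial DNA, 1 was called higher in hypoxia siControl (MT-CO3, 0.24, adjusted p = 0.00374; 10.4% of all genes) and 1 lower (MT-ND6, -0.57, adjusted p = 0.00497; 14.9% of all genes), with a median log2 fold change of -0.02. MT-ND6, the only one made from the other strand, was also called lower in siARNT (-0.66). With siARNT in hypoxia 5 of the 13 were called lower and none higher (14.7% and 14.4% of all genes), led by MT-ND3 (-0.45) and MT-ATP8 (-0.41). Mitochondrial transcripts carry short poly(A) tails or none, so their capture may differ from that of nuclear transcripts and between mitochondrial transcripts. Of 76 mitochondrial ribosomal protein genes, 44 were called lower and 2 higher in hypoxia siControl (14.9% and 10.4% of all genes; median -0.32). In hypoxia siARNT 5 were called lower (1.89% of all genes), and with siARNT in hypoxia 21 were called higher and 3 lower (14.4% and 14.7%). MRPS10 (-0.71) and MRPS23 (-0.62) had the largest called falls in siControl, and MRPS6 rose (1.09).

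Of 16 tested regulators of respiratory genes, 6 were called lower and 1 higher in hypoxia siControl (14.9% and 10.4% of all genes). MXI1, a MYC antagonist and known HIF target, rose from 57.9 ± 2.42 to 125 ± 5.46 CPM (1.11, adjusted p = 3.52e-06), with 41.5 ± 3.14 and 51.0 ± 4.86 CPM in siARNT (interaction -0.81, adjusted p = 0.00219). PPARGC1B, a coactivator of mitochondrial genes, fell (-0.49), was higher with siARNT in hypoxia (0.70), and had a called interaction of 0.60. TWNK, the mitochondrial DNA helicase, fell by 0.55 on the log2 scale. With siARNT in hypoxia 4 of the 16 were called higher and 4 lower (14.4% and 14.7% of all genes), YY1 (-0.46) among the latter. With siARNT in normoxia 5 were called lower and 1 higher (10.8% and 9.42% of all genes). TFB1M (-0.72) and TFB2M (-0.54), factors of mitochondrial ribosomal RNA and transcription, had the largest called falls there, and POLG rose (0.54). PPARGC1A had too few counts to be tested. Of 17 partners and modulators of the chain, 8 were called lower and 2 higher in hypoxia siControl (14.9% and 10.4% of all genes). The 2 were PDK1 (1.38) and FAM162A (0.24), and DHODH (-0.74) and AIFM1 (-0.69), which feed or build the chain, had the largest called falls. AIFM1 was at 97.3 ± 2.46 and 60.3 ± 1.36 CPM in siControl and at 87.5 ± 0.902 and 81.5 ± 6.54 CPM in siARNT (interaction 0.59, adjusted p = 0.00344). GPD2, the mitochondrial glycerol phosphate dehydrogenase, fell with siARNT at both oxygen levels (-1.09 and -1.15).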

How the data were processed

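Poly(A) RNA of 12 libraries was sequenced, stranded and single-end, per the labels' protocols. The deposited gene files hold counts, whole numbers of reads per gene as the authors made them. Trimmomatic, STAR 2.4.2a and GRCh38.p10 are named in the submitters' processing notes, and counter settings are not given in the sources used here. Lines that name no gene (22.71 to 25.2% of reads per library) stayed out of library sizes. Names were paired with 51996 of 57820 gene IDs. Transcript length and GC content came from GENCODE 29. The deposited event files give counts per splice junction and the spliced-in fraction, per the file headers; recomputed fractions matched within 0.006 in 100% of values. Retained introns, given as mean coverage, were not analysed here.

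Counts were fitted with edgeR 4.0.16 (R 4.3.3; TMM scaling, filterByExpr, robust quasi-likelihood, all 12 samples, 1 mean per group) over 16999 genes, with Benjamini-Hochberg adjustment in each of 5 comparisons and calls at 0.05. Standard errors are the log2 fold change over the root of F. Splicing used inclusion and exclusion counts with at least 10 reads in every sample. Ratios were tested with scipy 1.17.1. The tests were checked on simulated data. DESeq2 1.42.0 was an alternative, with other scalings, filters, blocks, GC and length corrections and leaving out each library. The members and lists were chosen with earlier results of these data known. Genes are named by rule: all paralogs, the called extremes and abundance extremes of each complex, and up to 2 rises and 2 falls per list; other names were chosen after their values were seen. Same-letter libraries did not deviate together in all groups (correlations -0.43 to 0.53), so letters were not used as pairs. Libraries of a group differed by more than counting error (chi-square over its degrees of freedom, 3.95 to 79.5), and all 12 entered as separate samples. The labels name no molecular identifiers, so the limits given for genes at 0 account for counting error alone.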

Additional observations from a re-analysis of the deposited data

Results flagged for a closer look

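The response to hypoxia differed between siControl and siARNT cells in 9 subunits, by edgeR's test of the difference itself (log2 change with hypoxia in siARNT cells, less the siControl value). The values were 0.48 for NDUFB3, 0.45 for NDUFAB1, 0.44 for COX7B, 0.41 for NDUFA6, 0.36 for ATP5MJ, 0.34 for UQCRFS1, 0.30 for ATP5F1A, 0.26 for NDUFS5 and -1.44 for COX6B2. Of all genes tested, 4.69% were called in this comparison. Each of the first 8 was called lower in hypoxia siControl and was not called in hypoxia siARNT. The calls changed with single libraries: leaving out 1 of 8 of the 12 libraries left 0 or 1 calls. With same-letter libraries of an siRNA taken as a transfected well and used as a block, 7 of the 9 calls were lost. The labels do not say that a letter marks a shared well.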

How the results depend on the processing

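Over 98 called subunit results and 2201 refits (other scalings, tool, filters, samples, blocks, corrections, each library left out) no direction turned, and 305 refits lost the call. For hypoxia in siControl 26 of 44 calls, for siARNT in hypoxia 23 of 34, for siARNT in normoxia 4 of 10 and for the interaction 0 of 9 were kept in every refit. Leaving out 1 library gave 31 to 49, 25 to 40, 4 to 18 and 0 to 16 calls in that order, and 0 to 1 for hypoxia in siARNT. At an adjusted p under 0.01 the counts were 29 for hypoxia in siControl, 0 for hypoxia in siARNT, 4 for siARNT in normoxia and 0 for the interaction. Hypoxia in siARNT gave 0 calls with total count scaling, no filter, the assumed transfected well as a block or only the 6 samples compared. It gave 15 with GC correction, 19 with GC correction and replicate block and 20 with GC and length correction. For siARNT in normoxia these 3 corrections gave 33, 35 and 34, and DESeq2 gave 25. For the interaction they gave 22, 25 and 20, total count scaling 21, no filter 4 and the well block 2. GC correction with replicate block gave 52 for siARNT in hypoxia. The replicate block alone gave 47 and 1 calls for hypoxia with siControl and with siARNT, 29 and 37 for siARNT at 21% and 1% oxygen and 10 for the interaction, and the letters are not shown to pair the samples. Subunit splicing calls stayed at 0 in every alternative run, and no paralog ratio moved by more than 1 SD. The cause of these shifts was not tested. Shares of all genes called are not given for the refits. Depth limits the 7 untested genes.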
